A study of Mus musculus with 14 samples.

Results

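The CC and CXC chemokine ligands were followed in primary hepatocytes and total liver of mice fed 2 diets. Every probe set whose annotated symbol was Ccl or Cxcl followed by a number was taken, and the brightest probe set stood for each symbol. This gave 36 ligands, 23 CC and 13 CXC, from 37 of the 22206 gene probe sets on the array, which carry 19505 symbols. All groups were adult male wild-type C57Bl6 mice kept on their diet for 2 weeks. Control mice received a CSAA diet, and the other mice received a CDAA diet with added cholesterol, glucose and fructose, named CDAA-HSHC in the series title. In common usage CDAA diets are amino acid-defined and low in choline, and are used to induce steatohepatitis in rodents. Primary hepatocytes, freed by collagenase perfusion, were measured on 3 arrays per diet. Total liver, the caudal lobe taken after the heart had been perfused with saline, was measured on 4 arrays per diet. Preparations were independent per the series design, and whether each array stands for 1 mouse or a pool is not given in the sources used here. The labels' name of primary hepatocytes describes how cells were isolated, and no sort or purity check is given in the sources used here.

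Chemokines are small secreted proteins that steer leukocytes along concentration gradients through G protein-coupled receptors on the leukocyte surface. The CC and CXC families are named for the spacing of their first conserved cysteines, and 1 receptor often binds several ligands, so that a set of ligands can call in 1 kind of cell. In injured liver, hepatocytes, Kupffer cells (the resident macrophages), sinusoidal endothelial cells and stellate cells can all secrete them, and monocyte and neutrophil recruitment is a known part of steatohepatitis.

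Values are log2 intensities, so a difference of 1 is a 2-fold change. Diet differences are CDAA minus CSAA, with the standard error (SE) of 1 linear model over all 14 arrays and limma's p-value, adjusted by the Benjamini-Hochberg method over all 22206 gene probe sets and called under 0.05. Array values are listed in the order of the replicate numbers, which have no meaning of their own. Intensities were not compared between tissues or between probe sets. Intron control probe sets, 5222 per array, gave the background: a ligand was above background in a group when each array lay above the 95th percentile of its own intron controls. That bound was 7.57 to 8.01 under CSAA and 6.84 to 7.61 under CDAA for hepatocytes, and 9.96 to 10.23 over the total liver arrays. Where the dimmer group did not reach the bound, its level is only an upper limit, and a fold is given as "at least", from the bright group's mean against the higher of the bound and the dim value on each array.

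Libraries did not all behave alike. In hepatocytes the spread between replicates was wider than in total liver, with a root mean square deviation of 0.47 on CSAA and 0.61 on CDAA against 0.32 in both groups of total liver. The shared model therefore sets hepatocyte errors too small on average and total liver errors too large, and a fit with each tissue's own spread is given beside the calls it ends. Total liver CDAA replicate 1 was the highest of its group for 12 of the 13 ligands that rose there. Hepatocyte CDAA replicate 1 was the lowest of its group for 12 of the 19 ligands that rose there. Without the first of these arrays 10 ligands rose in total liver, and without the second 20 rose in hepatocytes. Calls over all gene probe sets, in both directions, went from 2279 to 1510 in total liver and from 4158 to 5811 in hepatocytes.

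Markers of cells other than hepatocytes moved with the diet, most of all in the hepatocyte preparations. The mean of 5 Kupffer cell markers was 5.36 to 6.06 in hepatocytes on CSAA, where all 5 were under background, and 11.44 to 13.22 under CDAA, where none was. In total liver the same mean was 9.01 to 9.97 under CSAA feeding and 10.82 to 11.82 under CDAA feeding. The 7 markers of recruited macrophages and monocytes all rose in both tissues, with hepatocyte means of 3.45 to 3.67 against 8.21 to 9.47, and total liver means of 5.28 to 5.56 against 8.92 to 9.72. All 7 were under background on CSAA in both tissues. On CDAA 4 were above background on every hepatocyte array and 2 on none, against 1 and 4 in total liver. The total liver means were under the bound on every array. Sinusoidal endothelial markers rose for 5 of 5 genes and stellate cell markers for 4 of 4 in hepatocytes, against 1 of 5 and 2 of 4 in total liver. The share of all gene probe sets that rose was 11.0% in hepatocytes and 6.73% in total liver, for these and later marker counts. Hepatocyte markers were bright on every array, with means of 17.67 to 18.84 over 6 genes, and 1 of them, the urea cycle enzyme Cps1, fell in hepatocytes (log2 difference -1.35, adjusted p = 0.0020, or 0.064 with the tissue's own spread). The part of other cells in the ligand differences below was not tested, and in these bulk samples fewer cells of a type and less RNA per cell cannot be told apart.

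**Figure D1:**
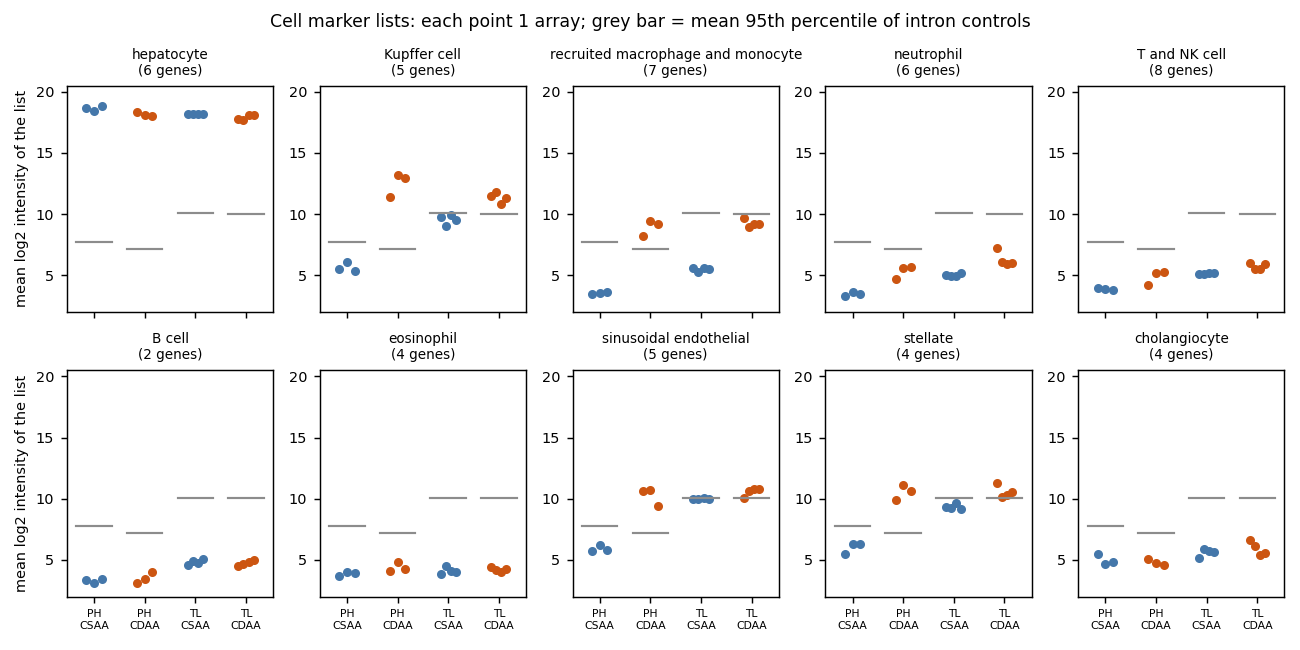
Mean log2 intensity of each cell marker list on each array (points) in the 4 groups, with the mean 95th percentile of the intron controls of the group as a grey bar. In hepatocytes (PH) the Kupffer cell list lies at 5.36 to 6.06 for CSAA but 11.44 to 13.22 for CDAA, while total liver (TL) shows 9.01 to 9.97 and 10.82 to 11.82. The neutrophil, T and NK cell, B cell, eosinophil and cholangiocyte lists stay under the bar in all 4 groups.

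On CSAA 2 of the 36 ligands were above background in hepatocytes, Ccl9 and Cxcl12, and the same pair in total liver. Over all gene probe sets 21.9% and 18.7% were above background in these groups, so most ligands were dim in the control livers. On CDAA 12 ligands were above background in hepatocytes (33.3%, against 25.3% of all gene probe sets) and 5 in total liver (13.9%, against 19.8%). The 12 were Ccl2, Ccl3, Ccl4, Ccl6, Ccl9, Cxcl1, Cxcl2, Cxcl9, Cxcl10, Cxcl12, Cxcl13 and Cxcl16, and the 5 were Ccl6, Ccl9, Cxcl9, Cxcl12 and Cxcl16. These counts rest on the bound: at the 99th percentile of the intron controls they were 5 in hepatocytes and 1 in total liver on CDAA. The share of all gene probe sets was not counted at that higher bound.

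In total liver 13 of 36 ligands rose on CDAA (36.1%, against 6.73% of all gene probe sets) and 1 fell (2.78%, against 3.54%). In hepatocytes 19 rose (52.8%, against 11.0%) and 1 fell (2.78%, against 7.74%). All 13 that rose in total liver rose in hepatocytes too. They were the monocyte attractant Ccl2, the macrophage and T cell attractants Ccl3, Ccl4, Ccl5, Ccl6 and Ccl9, the neutrophil attractants Cxcl1, Cxcl2 and Cxcl5, the Cxcr3 ligands Cxcl9 and Cxcl10, the Cxcr6 ligand Cxcl16 and the Ccr4 ligand Ccl22. Every CDAA array lay above every CSAA array for 15 ligands in total liver (13.1% of all gene probe sets did so) and for 19 in hepatocytes (12.4%). With each tissue's own spread 15 rose (11.7% of all) and 2 fell (9.05%) in total liver, while 17 rose (6.53%) and none fell in hepatocytes. Of the 16 ligands called in neither tissue, Cxcl12 alone was above background in any group.

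The median diet difference of the 36 ligands was 1.40 in hepatocytes, against -0.13 over all gene probe sets and -0.28 over the intron controls. In total liver it was 0.29, against -0.09 and -0.05. The central 95% of intron controls ran from -1.85 to 1.21 for hepatocytes and from -1.06 to 1.37 for total liver. In hepatocytes 19 ligands lay above that range and none below it, and in total liver 11 lay above and 1 below. Over all gene probe sets the central 95% reached higher, from -1.53 to 3.31 for hepatocytes and from -0.96 to 1.79 for total liver. A difference above 1 was found for 52.8% of ligands in hepatocytes, against 10.6% of all gene probe sets. In total liver it was found for 33.3%, against 6.43%. Ccl4 and Ccl5, with 0.88 and 1.04 in total liver, were called there although their differences were inside the range of the intron controls.

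**Figure D2:**
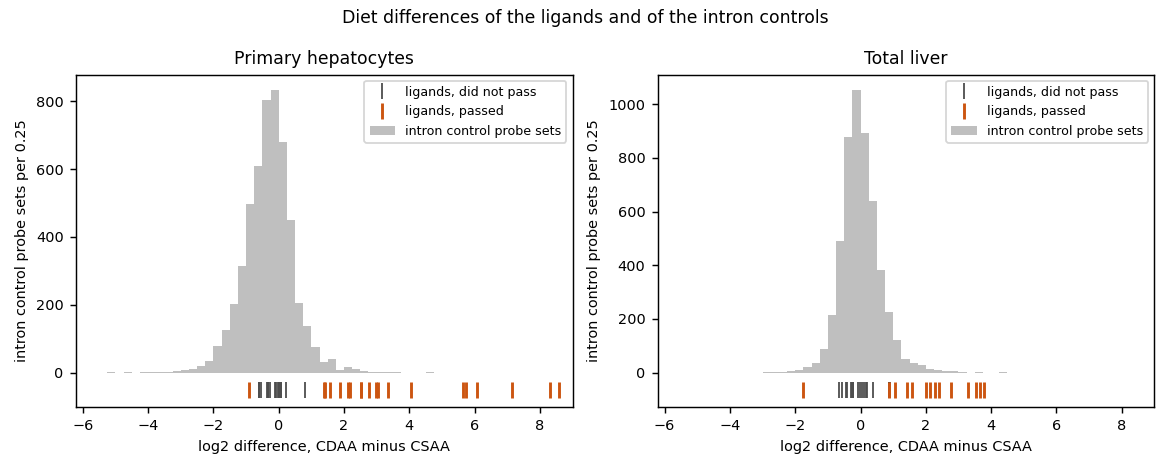
Diet differences (log2, CDAA minus CSAA) of the 36 ligands, drawn as ticks under the histogram of the 5222 intron control probe sets (bins of 0.25), in hepatocytes (left) and total liver (right). In hepatocytes 19 ticks lie to the right of the central 95% of the controls, which ends at 1.21, and in total liver 11 lie to the right of 1.37. Over all gene probe sets, not drawn, the central 95% ends at 3.31 in hepatocytes and 1.79 in total liver.

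The ligands of Ccr2, the receptor by which classical monocytes leave the marrow and enter tissue, rose for 3 of 3 genes in hepatocytes and 1 of 3 in total liver. Ccl2, the main monocyte attractant, read 4.09, 4.49 and 4.10 in hepatocytes on CSAA and 8.55, 10.60 and 10.72 on CDAA. All CDAA arrays were above background and no CSAA array was, at least 4.65-fold apart (log2 difference 5.73, SE 0.56, adjusted p = 1.9e-06). In total liver Ccl2 read 5.53, 5.75, 6.64 and 6.14 on CSAA and 10.50, 9.59, 8.32 and 8.86 on CDAA. The diets did not overlap, with replicate 1 the highest and the one CDAA array above background (3.31, SE 0.48, adjusted p = 0.00031).

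Ccl7, which shares Ccr2 with Ccl2, read 5.15, 5.25 and 5.20 in hepatocytes on CSAA and 6.01, 7.30 and 7.95 on CDAA (1.88, SE 0.37, adjusted p = 0.0016). In total liver its diets did not overlap either, at 5.11 to 5.84 against 6.04 to 6.66, and the difference of 0.87 (SE 0.32) had an adjusted p of 0.10. That p was 0.0096 with the tissue's own spread and 0.011 without hepatocyte CDAA replicate 1, and the call was also made without hepatocyte CDAA replicate 3. Ccl12, the third mouse ligand of Ccr2, was under background on every array. It read 2.95, 3.28 and 2.81 on CSAA and 3.51, 4.79 and 4.95 on CDAA in hepatocytes (1.41, adjusted p = 0.0047, but 0.086 with the tissue's own spread). In total liver its arrays overlapped at 3.80 to 4.65. The receptor Ccr2 itself rose in both tissues, by 4.58 (SE 0.48) in hepatocytes and 4.04 (SE 0.41) in total liver, and Ly6c2, a surface marker of the same monocytes, by 5.35 and 2.96.

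All 5 ligands grouped as attractants of macrophages, monocytes and T cells rose in both tissues. Ccl3 is made by activated macrophages. In hepatocytes it read 4.05, 3.71 and 3.80 on CSAA and 12.58, 12.56 and 12.19 on CDAA, at least 26.0-fold apart (8.59, SE 0.29, adjusted p = 4.6e-11). The replicates of each diet were within 0.4 of each other and the diets were far apart. In total liver Ccl3 read 5.04, 5.89, 6.02 and 6.16 on CSAA and 9.81, 9.62, 8.95 and 9.40 on CDAA (3.67, SE 0.25, adjusted p = 2.9e-07), with no overlap, and no array reached the bound.

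Ccl6, a ligand of Ccr1 found in rodents and made by macrophages, read 6.31, 5.79 and 6.23 in hepatocytes on CSAA and 12.17, 15.82 and 15.28 on CDAA. That was at least 102.8-fold (8.32, SE 0.63, adjusted p = 1.3e-07), and replicate 1 was 3 log2 units under the other CDAA arrays. In total liver Ccl6 read 8.46, 7.89, 8.24 and 8.32 on CSAA and 12.28, 12.24, 11.71 and 11.84 on CDAA. The CDAA arrays were all above background and the CSAA arrays all under it, at least 3.82-fold apart (3.79, SE 0.54, adjusted p = 0.00026). Ccl9, a close rodent relative of Ccl6, was bright in every group. It read 12.94, 12.61 and 14.73 on CSAA and 15.09, 16.76 and 16.73 on CDAA in hepatocytes, a measured 6.80-fold (2.77, SE 0.48, adjusted p = 0.00063). In total liver it read 13.54, 13.33, 13.20 and 13.08 on CSAA and 15.12, 14.69, 14.65 and 15.06 on CDAA, 3.01-fold (1.59, SE 0.42, adjusted p = 0.023). The diets did not overlap in either tissue. The total liver call of Ccl9 was lost without CSAA replicate 2, 3 or 4 or CDAA replicate 1 or 4 (adjusted p up to 0.073), and the tissue's own spread gave 5.7e-05.

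Ccl4, a close relative of Ccl3, read 5.79, 5.69 and 5.67 in hepatocytes on CSAA and 9.02, 9.58 and 8.59 on CDAA, at least 2.50-fold apart (3.34, SE 0.24, adjusted p = 8.6e-08). In total liver it read 6.29, 6.22, 5.83 and 5.89 on CSAA and 7.17, 6.88, 6.98 and 6.74 on CDAA (0.88, SE 0.21, adjusted p = 0.012). Ccl4 was apart by diet in both tissues, and no total liver array was above background. Ccl5, known as RANTES, draws T cells and monocytes and was under background on every array. Its hepatocyte values were 3.23, 3.33 and 3.28 on CSAA and 5.10, 6.39 and 4.95 on CDAA (2.20, SE 0.31, adjusted p = 8.6e-05). In total liver they were 5.09, 5.34, 5.22 and 5.33 on CSAA and 6.72, 5.98, 6.09 and 6.36 on CDAA (1.04, SE 0.27, adjusted p = 0.021). No CDAA array of Ccl5 fell within the CSAA range. The total liver call was lost without CSAA replicate 1 or 3 or CDAA replicate 1 or 4, with adjusted p up to 0.082, and under joint quantile normalization of all arrays (0.056).

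Ccr1, a receptor for ligands of this group, rose by 1.67 (SE 0.36) in total liver and by 1.64 (SE 0.41) in hepatocytes, the latter with an adjusted p of 0.010, or 0.076 with the tissue's own spread. In the RefSeq order on GRCm38.p6 the genes Ccl5, Ccl9, Ccl6, Ccl3 and Ccl4 follow one another on chromosome 11 with 0 other coding genes between them, and all 5 rose in both tissues. A second run on chromosome 11 holds Ccl2, Ccl7, Ccl11, Ccl12, Ccl8 and Ccl1, and of these Ccl11, Ccl8 and Ccl1 were called in neither tissue.

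**Figure D3:**
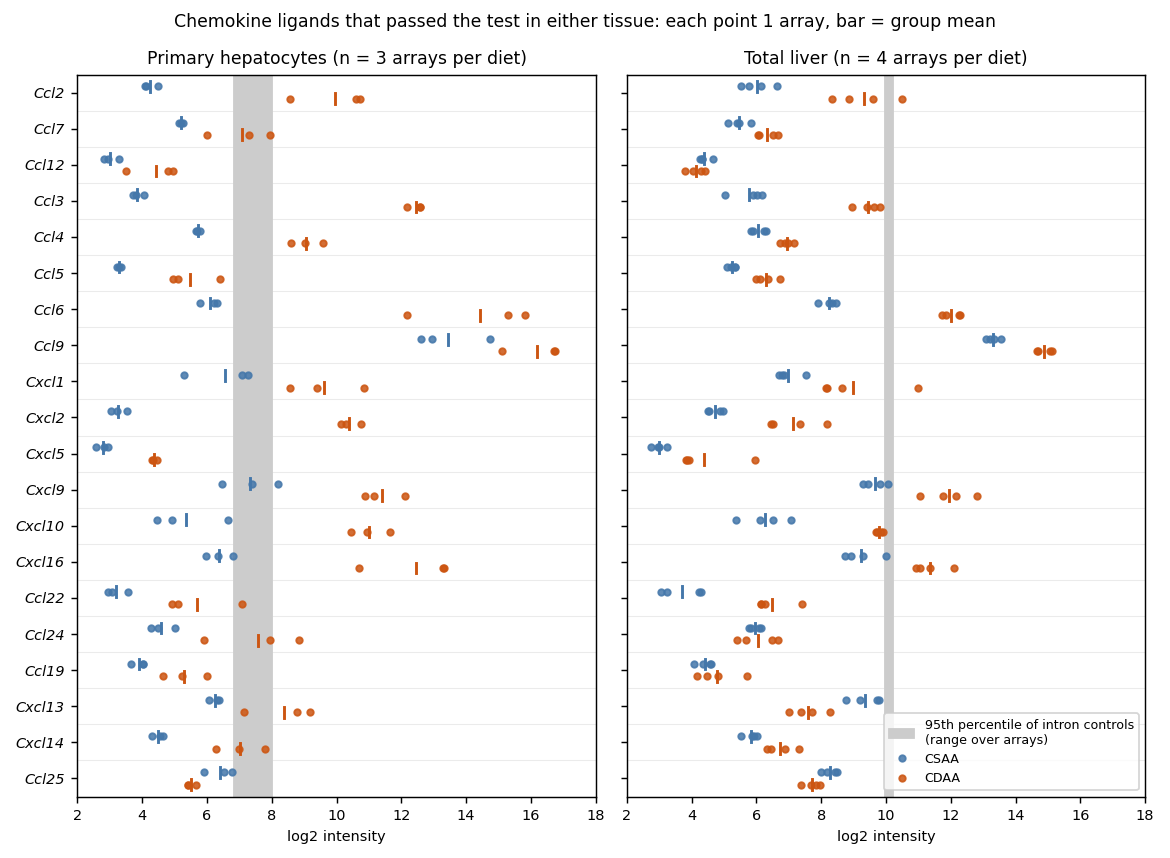
Log2 intensity on each array (points) and group mean (bars) of the 20 ligands called in either tissue, with the range of the intron controls' 95th percentile over arrays in grey. Ccl3 and Ccl6 in hepatocytes move from below 6.4 on CSAA to above 12.1 on CDAA, Ccl9 is right of the grey band in every group, and Cxcl13 is higher on CDAA in hepatocytes and lower on CDAA in total liver.

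The ligands of Cxcr2, by which neutrophils are called into tissue, rose for 3 of 5 measured genes in each tissue: Cxcl1, Cxcl2 and Cxcl5. Cxcl1, Cxcl2 and Cxcl3 lie close together on chromosome 5 and are near relatives, yet Cxcl3 was called in neither tissue. The 250 bases before the start of each are printed from RefSeq (GRCm38.p6), because these 3 windows hold the same NF-kB match and can be set against their different values. The windows are chr5:90890995-90891244 for Cxcl1, chr5:90903649-90903898 for Cxcl2 and chr5:90785851-90786100 for Cxcl3, all on the plus strand, 5′ to 3′. Capitals mark matches to the NF-kB consensus, a motif of 10 bases searched on both strands, with overlapping matches joined.
Cxcl1: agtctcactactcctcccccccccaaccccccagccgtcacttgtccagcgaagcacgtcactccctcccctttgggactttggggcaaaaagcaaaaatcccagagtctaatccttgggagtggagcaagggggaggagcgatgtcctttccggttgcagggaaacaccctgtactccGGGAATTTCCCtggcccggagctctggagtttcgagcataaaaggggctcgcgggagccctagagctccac
Cxcl2: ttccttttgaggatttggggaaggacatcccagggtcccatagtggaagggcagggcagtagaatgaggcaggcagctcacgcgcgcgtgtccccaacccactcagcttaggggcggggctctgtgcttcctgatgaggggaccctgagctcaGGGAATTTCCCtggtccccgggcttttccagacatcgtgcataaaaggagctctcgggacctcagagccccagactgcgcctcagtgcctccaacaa
Cxcl3: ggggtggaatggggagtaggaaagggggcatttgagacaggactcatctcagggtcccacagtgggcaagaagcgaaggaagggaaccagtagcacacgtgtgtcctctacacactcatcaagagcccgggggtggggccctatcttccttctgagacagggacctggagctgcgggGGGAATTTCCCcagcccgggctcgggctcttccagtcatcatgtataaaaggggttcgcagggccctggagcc

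The match GGGAATTTCCC starts at -71 from the start of Cxcl1, -97 from that of Cxcl2 and -73 from that of Cxcl3. The NF-kB consensus was found in 6 of the 24 ligands that have a window, namely Ccl9, Ccl20, Cxcl1, Cxcl2, Cxcl3 and Cxcl10. It was found in 4.46% of all 27025 genes with a window, and in 3.9% of all 32851 windows, as a gene can have several. Of these 6 ligands Ccl20 and Cxcl3 were called in neither tissue. A match describes letters and shows no binding.

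Cxcl2 (MIP-2) read 3.52, 3.03 and 3.23 in hepatocytes on CSAA and 10.14, 10.30 and 10.76 on CDAA, at least 6.31-fold apart (7.14, SE 0.37, adjusted p = 2.6e-09). In total liver it read 4.53, 4.50, 4.98 and 4.89 on CSAA and 8.18, 7.35, 6.44 and 6.50 on CDAA (2.39, SE 0.32, adjusted p = 0.00015). Neither tissue showed overlap, and the total liver arrays were under background throughout. Cxcl1 (KC) read 7.07, 5.30 and 7.25 in hepatocytes on CSAA and 10.83, 8.58 and 9.39 on CDAA, at least 3.62-fold apart (3.06, SE 0.71, adjusted p = 0.0062). Its total liver values were 6.80, 6.84, 6.71 and 7.54 on CSAA and 10.99, 8.64, 8.18 and 8.14 on CDAA (2.01, SE 0.62, adjusted p = 0.0498). The diets were apart, with CDAA replicate 1 more than 2 units over the rest. The total liver call of Cxcl1 sat at the threshold and was lost in 12 of 23 other settings. These left out any total liver array but CDAA replicate 3, or hepatocyte CSAA replicate 1 or 3, or rescaled the arrays, and without total liver CDAA replicate 1 the difference was 1.35 (adjusted p = 0.15).

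Cxcl5, a neutrophil attractant made largely by epithelial cells, was under background on every array. It read 2.58, 2.83 and 2.95 on CSAA and 4.34, 4.29 and 4.46 on CDAA in hepatocytes (1.58, SE 0.42, adjusted p = 0.015, or 0.052 without CSAA replicate 1). Total livers read 2.74, 3.23, 2.99 and 2.96 on CSAA and 5.94, 3.87, 3.82 and 3.93 on CDAA (1.41, SE 0.36, adjusted p = 0.021). The CDAA arrays were all above the CSAA arrays, and replicate 1 stood 2 units over the others of its group. Without that array the difference was 0.89 with an adjusted p of 0.0065, and without CSAA replicate 1 or 4 the adjusted p was up to 0.062. Cxcl3 read 4.90, 4.91 and 4.95 on CSAA and 4.92, 5.98 and 6.28 on CDAA in hepatocytes (0.81, SE 0.28, adjusted p = 0.058). Only its first CDAA array lay within the CSAA range, and without that array the difference was 1.21 with an adjusted p of 0.00046. In total liver Cxcl3 differed by -0.08 (SE 0.24). Cxcl15 (lungkine), which in the mouse is best known from lung, stayed between 2.74 and 3.55 in hepatocytes and between 3.73 and 4.72 in liver.

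Neutrophil markers rose for 4 of 6 genes in hepatocytes and 3 of 6 in total liver, and none was above background on all arrays of a group. Their mean was 7.27 on total liver CDAA replicate 1, the array with the highest Cxcl1, Cxcl2 and Cxcl5, against 5.90 to 6.12 on the other CDAA arrays and 4.96 to 5.23 on CSAA. This was not particular to neutrophils, since that array was the highest of its group for 12 of the 13 ligands that rose in total liver. It also had the highest mean for the recruited macrophage, stellate, cholangiocyte, T and natural killer cell and eosinophil lists. For the hepatocyte, Kupffer cell, B cell and sinusoidal endothelial lists it did not. The receptor Cxcr2 was under background in all groups, with differences of 0.17 (SE 0.29) in hepatocytes and 0.18 (SE 0.25) in total liver.

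Of the 3 ligands of Cxcr3, the receptor of activated T cells and natural killer cells, Cxcl9 and Cxcl10 rose in both tissues and Cxcl11 was called in neither. All 3 are known as interferon-induced genes. The upstream window of Cxcl10, chr5:92348890-92349139 on the minus strand of GRCm38.p6 (RefSeq), is printed because it holds both motifs searched. In it the NF-kB consensus starts at -159 and -103 and the interferon response element core, GAAANNGAAA on either strand, at -213.
Cxcl10: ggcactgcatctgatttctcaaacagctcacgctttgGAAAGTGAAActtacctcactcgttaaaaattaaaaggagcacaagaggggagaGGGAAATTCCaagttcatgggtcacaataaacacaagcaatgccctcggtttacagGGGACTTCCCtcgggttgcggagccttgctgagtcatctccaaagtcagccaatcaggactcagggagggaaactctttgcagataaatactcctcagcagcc

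The core was found in 3 of the 24 ligands with a window, Ccl19, Cxcl10 and Cxcl14, and in 3.46% of all genes with a window (2.98% of all windows). The window of Cxcl9 held neither motif, which says nothing about either factor. Cxcl10 read 6.66, 4.46 and 4.90 in hepatocytes on CSAA and 11.64, 10.93 and 10.43 on CDAA, at least 9.57-fold apart (5.66, SE 0.49, adjusted p = 6.3e-07). The total livers read 6.09, 5.38, 7.05 and 6.51 on CSAA and 9.91, 9.86, 9.71 and 9.68 on CDAA (3.53, SE 0.43, adjusted p = 6.1e-05). The 4 CDAA livers were within 0.3 of each other, just under the bound, and all above the CSAA livers. Cxcl9 read 7.37, 6.45 and 8.19 in hepatocytes on CSAA and 10.89, 12.11 and 11.16 on CDAA, with 1 of the 3 CSAA arrays and all CDAA arrays above background (4.05, SE 0.47, adjusted p = 1.1e-05). Total liver values were 9.83, 9.43, 10.07 and 9.28 on CSAA and 12.15, 12.81, 11.04 and 11.75 on CDAA, at least 3.62-fold apart (2.29, SE 0.41, adjusted p = 0.0015). Cxcl9 is thus the ligand of this class that was above background in both CDAA groups.

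Cxcl11 stayed between 3.72 and 3.98 in hepatocytes and between 5.95 and 6.70 in liver. T and natural killer cell markers rose for 3 of 8 genes in hepatocytes (Ncr1, Klrb1c and Gzma, the last with an adjusted p of 0.010, or 0.11 with the tissue's own spread). In total liver 2 of 8 rose (Ncr1 and Klrb1c) and Cd4 fell by 0.81. The T cell receptor components Cd3e and Cd3d were called in neither tissue, and Cxcr3 differed by 0.31 (SE 0.22) and -0.04 (SE 0.19). All 8 markers were under background on every array of total liver.

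Cxcl16, the single ligand of Cxcr6, is made as a membrane protein that also takes up oxidized lipoprotein and draws NKT cells and resident T cells. It read 6.35, 5.96 and 6.80 in hepatocytes on CSAA and 10.69, 13.30 and 13.32 on CDAA, at least 25.9-fold apart (6.07, SE 0.57, adjusted p = 1.3e-06). Total liver gave 9.29, 8.92, 10 and 8.73 on CSAA and 12.09, 10.94, 11.36 and 11.04 on CDAA, at least 2.41-fold apart (2.12, SE 0.49, adjusted p = 0.010). In both tissues all CDAA arrays were above background and above all CSAA arrays. Cxcr6 stayed under background, with differences of 0.67 (SE 0.33) and 0.20 (SE 0.29).

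Ccl22, a macrophage and dendritic cell product that draws regulatory and Th2 cells through Ccr4, was the ligand of the Ccr4 and Ccr8 class that rose, 1 of 4 in each tissue. It read 3.07, 2.95 and 3.55 in hepatocytes on CSAA and 5.09, 7.09 and 4.92 on CDAA (2.51, SE 0.52, adjusted p = 0.0025). The total liver values were 3.24, 4.24, 4.29 and 3.06 on CSAA and 7.39, 6.14, 6.27 and 6.15 on CDAA (2.78, SE 0.45, adjusted p = 0.00071). The diets were apart in both tissues, 1 hepatocyte array reached the bound and no total liver array did. Ccl17, which shares Ccr4 with Ccl22 and lies near it on chromosome 8, had differences of 0.22 (SE 0.23) and -0.25 (SE 0.20). The Ccr8 ligands Ccl1 and Ccl8 stayed between 2.50 and 4.91 on all arrays.

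Of the 3 ligands of the eosinophil receptor Ccr3, Ccl24 (eotaxin-2) rose in hepatocytes. It read 4.26, 4.49 and 5.0 on CSAA and 5.91, 8.85 and 7.95 on CDAA, 2 of the 3 CDAA arrays being above background (2.99, SE 0.54, adjusted p = 0.00084). In total liver its arrays overlapped at 5.40 to 6.66 (0.10, SE 0.47). Ccl11 (eotaxin) and Ccl26 were called in neither tissue, with differences between -0.60 and -0.01. Eosinophil markers rose for 1 of 4 genes in hepatocytes, where 11.0% of all gene probe sets rose, and for none in total liver. The 1 was Siglecf (2.04, adjusted p = 0.011, or 0.083 with the tissue's own spread). The granule genes Prg2 and Epx were under background in all groups.

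Cxcl13, which gathers B cells and follicular helper T cells through Cxcr5, moved in opposite directions. In hepatocytes it read 6.38, 6.29 and 6.06 on CSAA and 7.15, 8.77 and 9.17 on CDAA, at least 1.54-fold apart (2.12, SE 0.45, adjusted p = 0.0030). Its total liver values were 9.79, 8.76, 9.72 and 9.18 on CSAA and 7.38, 8.29, 6.99 and 7.71 on CDAA (-1.77, SE 0.39, adjusted p = 0.0071). The diets did not overlap in either tissue, the total liver values were all under the bound, and the difference between the tissues was itself called (-3.89, SE 0.59, adjusted p = 0.0013). The fall in total liver and the rise in hepatocytes were called in all 23 other settings, with adjusted p up to 0.030 and 0.042. The B cell markers Cd79a and Ms4a1 and the receptor Cxcr5 were under background on all arrays and were called in neither tissue.

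The Ccr7 ligands guide dendritic cells and naive T cells to lymphoid organs. Ccl19 read 4.01, 3.64 and 4.03 in hepatocytes on CSAA and 4.64, 5.22 and 6.01 on CDAA (1.39, SE 0.37, adjusted p = 0.015, or 0.065 with the tissue's own spread), all under background and without overlap. In total liver its range of 4.15 to 5.70 on CDAA spanned that on CSAA in part (0.39, SE 0.32). The call in hepatocytes was also lost without CSAA replicate 2 or CDAA replicate 3. Ccl21a, Ccl21b and Ccl21c were called in neither tissue. The probe sets of Ccl21b and Ccl21c hold identical values on all 14 arrays, so these gene copies cannot be told apart and give 1 measurement, although both symbols are kept in the counts of 36. In total liver that measurement spanned 5.12 to 5.80 under CSAA and 5.50 to 7.47 under CDAA (0.88, SE 0.34, adjusted p = 0.12, or 0.033 without CDAA replicate 2).

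Cxcl14, which draws monocytes and immature dendritic cells and whose receptor is debated, rose in hepatocytes from 4.30, 4.64 and 4.53 to 6.27, 7.79 and 6.99 (2.53, SE 0.34, adjusted p = 4.7e-05). The total livers gave 5.53, 5.92, 5.88 and 6.03 on CSAA and 7.31, 6.43, 6.89 and 6.31 on CDAA (0.90, SE 0.29, adjusted p = 0.064, or 0.014 with the tissue's own spread and 0.019 without hepatocyte CDAA replicate 1, and also called without CDAA replicate 2). Both tissues had the diets apart, and 1 hepatocyte array on CDAA reached the bound. Cxcl17, a mucosal chemokine, stayed between 2.98 and 3.68 in hepatocytes and between 4.17 and 4.96 in liver.

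Cxcl12, the Cxcr4 ligand that holds stem cells and lymphocytes in place, was bright in all groups and was not called. It read 14.44, 14.23 and 14.52 on CSAA and 14.20, 14.90 and 14.13 on CDAA in hepatocytes (0.01, SE 0.31). Total livers read 15.06, 14.79, 14.38 and 14.66 on CSAA and 13.99, 13.35, 14.63 and 14.33 on CDAA (-0.65, SE 0.27, adjusted p = 0.15). The diets overlapped in both tissues. Its receptor Cxcr4 rose by 5.26 (SE 0.44, adjusted p = 4.1e-07) in hepatocytes and by 1.70 (SE 0.38, adjusted p = 0.0085) in total liver.

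Ccl25, which draws gut-homing T cells through Ccr9, was the 1 ligand that fell in hepatocytes, from 6.53, 6.78 and 5.91 to 5.65, 5.42 and 5.40 (-0.91, SE 0.24, adjusted p = 0.015). The groups were apart but under background, and the adjusted p was 0.12 with the tissue's own spread. The call was also lost without CSAA replicate 1 or 2 or CDAA replicate 2, and with arrays centred on their intron controls. In total liver Ccl25 read 8.41, 8.0, 8.19 and 8.49 on CSAA and 7.36, 7.83, 7.98 and 7.69 on CDAA, without overlap (-0.56, SE 0.21, adjusted p = 0.12, or 0.044 with the tissue's own spread). The Ccr6 ligand Ccl20 and the Ccr10 ligands Ccl27a and Ccl28 of epithelial surfaces were under background on all arrays, with differences of -0.60 to 0.01 and overlapping diets.

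**Figure D4:**
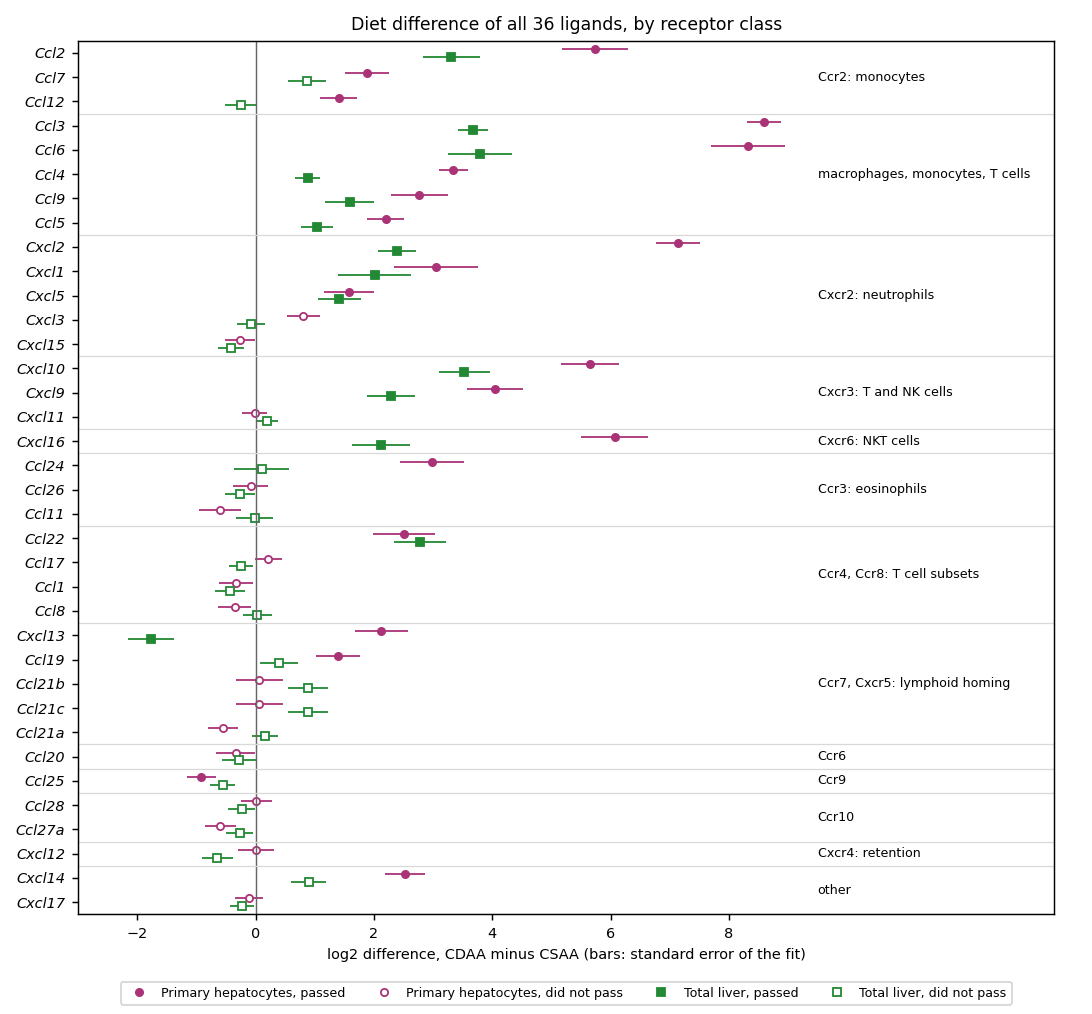
Log2 diet difference (CDAA minus CSAA) with its standard error for all 36 ligands in hepatocytes (circles) and total liver (squares), grouped by receptor class, filled where the adjusted p was under 0.05. The class of Ccl3, Ccl4, Ccl5, Ccl6 and Ccl9 is filled throughout, Cxcl13 lies at 2.12 in hepatocytes and -1.77 in total liver, and the Ccr6, Ccr10 and Cxcr4 classes are open throughout.

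The diet difference itself was compared between tissues. As fitted, it was larger in hepatocytes for 8 of 36 ligands (22.2%, against 2.36% of all gene probe sets) and larger in total liver for 0 (against 0.212%). The 8 were Ccl3 (-4.92, SE 0.38, adjusted p = 7.0e-06), Cxcl2 (-4.75, SE 0.49), Ccl6 (-4.53, SE 0.83), Cxcl16 (-3.95, SE 0.75), Cxcl13, Ccl24 (-2.89, SE 0.71), Ccl4 (-2.46, SE 0.32) and Ccl12 (-1.65, SE 0.42), each given as total liver minus hepatocytes. For 6 of the 8, all but Ccl6 and Cxcl16, no total liver group was above background, and the bound was higher in total liver than in hepatocytes, so the size of their total liver differences is not measured and these values compare fitted intensities. With each tissue's own spread 6 remained under 0.05 (1.71% of all gene probe sets), and the calls of Ccl24 (adjusted p = 0.11) and Ccl12 (0.13) were lost. Leaving out arrays also ended these 2 calls, for Ccl24 any array but hepatocyte CSAA replicate 3, CDAA replicate 1 or total liver CDAA replicate 2, and for Ccl12 any but hepatocyte CDAA replicate 1. The Ccl12 call was also lost with arrays centred on their medians (adjusted p = 0.053) and with the replicate number as a block (0.056), a fit that called Cxcl10 (-2.13, adjusted p = 0.040 against 0.13). Ccl2 differed by -2.43 (SE 0.74, adjusted p = 0.12), or by -2.82 (adjusted p = 0.041) without total liver CDAA replicate 1 and -3.13 (0.0028) without hepatocyte CDAA replicate 1. Kupffer cell markers differed between tissues in the same direction, with -7.30 for Clec4f, -6.25 for Vsig4, -7.03 for Cd5l and -3.05 for Timd4, all called, and -1.88 for Marco, not called. Of the 7 recruited macrophage markers 3 were called, Adgre1 (-3.84), Ly6c2 (-2.39) and Trem2 (-3.71, adjusted p = 0.026, or 0.090 with each tissue's own spread). The other 4 were not, with -1.56 for Gpnmb, -0.54 for Ccr2, -0.03 for Cx3cr1 and 0.70 for Itgax. In the shared model 4 of 5 sinusoidal endothelial and 3 of 4 stellate cell markers were also called in that direction. No marker of the other lists was called. The part of any of these cells in the tissue difference was not tested.

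Other genes of the chemokine system were described from lists. Of 17 receptors measured, 4 rose in total liver (Ccr1, Ccr2, Cxcr4 and Cx3cr1) and 6 in hepatocytes (those 4, Ccr9 and Xcr1), and none fell. Over all gene probe sets 6.73% rose in total liver and 11.0% in hepatocytes. In hepatocytes the adjusted p of Ccr9 was 0.063 and that of Xcr1 0.24 with the tissue's own spread. Cxcr4 in hepatocytes on CDAA was the one receptor above background on every array of a group. Among 5 receptors listed as decoy or atypical, Ccrl2 rose from a mean of 3.55 to 11.25 in hepatocytes (7.70, SE 0.26). In total liver it rose from 5.42 to 7.29 (1.87, SE 0.22), with all arrays under background. Ackr1 rose in hepatocytes (1.15, adjusted p = 0.028, or 0.13 with the tissue's own spread). The platelet chemokines Pf4 (2.81, SE 0.42) and Ppbp (1.12, adjusted p = 0.0096, or 0.10) rose in hepatocytes and were not called in total liver, while Cx3cl1 and Xcl1 were called in neither.

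Of 11 measured genes of the signals that induce chemokines, 7 rose in hepatocytes (11.0% of all gene probe sets did so) and 6 in total liver (6.73%). The cytokine Tnf rose by 6.15 (SE 0.48) in hepatocytes and 2.45 (SE 0.41) in total liver, and Il1a by 6.30 (SE 0.36) and 1.09 (SE 0.31). Both Tnf and Il1a were under background on all total liver arrays. Il1b rose by 6.43 (SE 0.79) in hepatocytes, while in total liver it differed by 1.05 (SE 0.68, adjusted p = 0.38). Tnfaip3, an NF-kB target that restrains the pathway, rose by 6.54 and 4.03, and Nfkbia, another such target, by 4.02 in hepatocytes, while the NF-kB subunit Nfkb2 rose by 1.84 in total liver. The interferon regulatory factors Irf1 and Irf7 rose by 2.55 and 3.86 in hepatocytes and by 0.84 and 1.90 in total liver. The total liver call of Irf1 was near the threshold (adjusted p = 0.048) and its diets overlapped there. The T cell cytokines Ifng and Il17a were under background on all arrays and were called in neither tissue.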

How the data were processed

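RNA was hybridized to Clariom S mouse arrays after WT PLUS labelling, and each tissue was extracted with its own RNeasy kit, per the labels' protocols. The authors deposited log2 intensities from RMA, per the submitters' processing notes; its version and a genome build are not given in the sources used here. Array medians were near 4.6 in hepatocytes and 6.2 in total liver, so the tissues look to have been normalized apart. The 6640 control probe sets were left out of the tests, and no filter on dim probe sets was set. One linear model with 4 group means took in the 14 arrays (limma 3.58.1, R 4.3.3, 10 residual and 5.11 prior degrees of freedom), and tests were two-sided. The fit was checked on data simulated with the same spread in both tissues. It was also run on data simulated with a spread for each tissue, but that run was held to no limit and is not reported here. The fit with each tissue's own spread was checked on those data. The tissues here differ in spread, so the check with the same spread does not show how the shared fit behaves on these data. The diet difference was tested per tissue, and then total liver against hepatocytes. Calls adjusted over all 22206 probe sets are the results; the number of arrays limits the precision. Every member is named or counted, each in the class of its main receptor. Replicate numbers were not taken as pairs, since same-numbered arrays correlated at -0.21 to 0.35 in their deviations from the group means. Motifs were searched in RefSeq windows of 250 bases, which 24 of 36 ligands have. Alternatives covered the moderation, spread, filter, normalization, centring, array weights, replicate block and leaving out arrays. Of the genes listed for markers and pathways, 6 found no probe set. The members, the lists and most alternatives were chosen with earlier results of these data known.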

Additional observations from a re-analysis of the deposited data

Results flagged for a closer look

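Gaps between 1 array and the rest of its group were tested with Dixon's ratio (gap over range, against its 95% critical value for 4 arrays) in 72 groups, the 36 ligands in both diets of total liver, where chance flags about 1 group in 20. Total liver CDAA replicate 1 stood above its group for Cxcl5, with a ratio of 0.949, and for Ccl22, with 0.899. Total liver CSAA replicate 4 stood above its group for Cxcl1, with 0.836. Without CDAA replicate 1 the total liver difference was 0.89 for Cxcl5 and 2.48 for Ccl22, both still called (adjusted p = 0.0065 and 0.0036).

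The diet difference was called as unequal between the tissues for 8 ligands by the test of that difference. As total liver minus hepatocytes it was -4.92 for Ccl3, -4.75 for Cxcl2, -4.53 for Ccl6, -3.95 for Cxcl16, -3.89 for Cxcl13, -2.89 for Ccl24, -2.46 for Ccl4 and -1.65 for Ccl12. Cxcl13 is the one of them whose 2 diet differences were called in opposite directions.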

How the results depend on the processing

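No called difference changed direction in any of the settings run. The count of ligands that fell in total liver, 1, became 2 with each tissue's own spread, with centring on array medians and with array weights. In hepatocytes the count that fell, 1, became 0 with each tissue's own spread and with centring on intron control medians (added after seeing the data), 2 with centring on array medians, and 0 to 1 when single arrays were left out. Ligands with the larger difference in hepatocytes numbered 8, or 16 with array weights and 6 to 12 when single arrays were left out. Calls over all gene probe sets, in both directions, moved too. They numbered 570, or 2725 with array weights and 396 to 2265 when single arrays were left out. At the 99th percentile of the intron controls 5 ligands were above background in hepatocytes on CDAA in place of 12, 1 in total liver on CSAA in place of 2, and 1 in total liver on CDAA in place of 5. Ligands that rose numbered 11 to 15 in total liver and 17 to 20 in hepatocytes over settings that kept all arrays, and 10 to 15 and 18 to 20 without single arrays. Calls in both directions over all gene probe sets numbered 2064 to 4992 and 1883 to 6806 where all arrays were kept. Without single arrays they numbered 1510 to 3115 and 3039 to 5811. The replicate block left the counts at 13 and 1 in total liver, 19 and 1 in hepatocytes and 8 between tissues, where Ccl12 was lost and Cxcl10 gained. Centring on array medians moved the median difference of all gene probe sets from -0.09 to -0.23 in total liver and from -0.13 to -0.29 in hepatocytes, and centring on intron control medians moved the latter to 0.17. Most ligands were under the intron control bound on CSAA, so their fitted differences depend on signal that the background limits. Without the dimmest 30% of probe sets 33 ligands were tested, and Cxcl5 was not among them.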
